A study of Mus musculus with 12 samples.

Results

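The comparison set embryoid bodies of one engineered mouse embryonic stem (ES) cell line against those of another on day 4 of differentiation. It took every array collected on day 4, which is 8 of the 12 in the series. Of these, 6 came from a line in which doxycycline (dox) induces microRNAs against Geminin (gene Gmnn), called the knockdown line here, and 2 from a line in which dox induces Geminin itself, called the overexpression line. Both were made in A2lox ES cells, whose strain is 129P2/OlaHsd, and kept on irradiated feeder fibroblasts with LIF and freed of feeders before aggregation in serum. The knockdown line gave 3 control arrays without dox and 3 arrays with dox at 0.5 µg/ml from day 0. The overexpression line gave 1 control array and 1 array with dox at 0.5 µg/ml from day 3, both numbered replicate 3. The labels do not say whether a line is 1 clone, or whether replicates were separate cultures, so a p-value here covers no more than array-to-array spread, which may be technical. Line, day of dox addition to the dox arrays and culture cannot be told apart in this design.

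Embryoid bodies are aggregates in which ES cells, once LIF is withdrawn, leave pluripotency, pass through a state like the epiblast of the early embryo and form the 3 germ layers. Cells like those of the primitive streak arise under Wnt, Nodal and BMP signals and turn on T-box and homeobox factors such as Eomes and Mixl1. Nascent mesoderm then turns on Mesp1, Msgn1 and Tbx6, and lateral and extraembryonic mesoderm takes up factors such as Msx2, Foxf1 and Kdr. In whole aggregates, fewer cells of a type and less RNA per cell cannot be told apart.

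Levels are log2(intensity + 1) after quantile normalization, and differences are the overexpression line minus the knockdown line with dox as a covariate, in log2 units with the standard error (SE) of the fit. Of 15950 genes tested with limma, 43 (0.27%) were called at a Benjamini-Hochberg adjusted p under 0.05, 40 (0.251%) higher and 3 (0.0188%) lower in the overexpression line, and at an unadjusted p under 0.05 there were 937 higher and 982 lower. Of the 40, 11 belong to the primitive streak, nascent and paraxial, and lateral and extraembryonic mesoderm lists. These lists hold 21, 21 and 20 of the 15950 genes tested, with some members shared, and 0.251% of all genes were called higher. The lists were chosen with earlier results of these data known. Calls higher had differences from 0.64 to 2.46, with a median of 1.27. For 10 of the 40, the knockdown-line mean lay below the level that the mean over all 12 arrays had to reach for testing (log2 6.46), so these genes entered the test through the overexpression line, and the size and p of their differences are descriptions against a dim group. They were Wnt5a, Bmp2, Mesp1, Tbx20, Foxf1, Nrp1, Asb4, Lmo1, Rasgrp3 and B130016D09Rik. Without any model, both overexpression-line arrays lay above all 6 knockdown-line arrays for 1293 genes (8.11%) and below all 6 for 1342 genes (8.41%). All 43 called genes were among these. The median difference over all genes tested was -0.01.

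The calls rest on counting the overexpression-line arrays as separate samples. With each control and dox pair averaged, so that 1 pair stood against 3, no gene passed in limma (0 called), while 956 had an unadjusted p under 0.05. Without either overexpression-line array it also called 0, with 558 at an unadjusted p under 0.05 without the control and 1047 without the dox array. Among knockdown-line arrays, leaving out control 1, dox 2 or control 3 gave 25, 25 and 26 genes called higher.

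**Figure D1:**
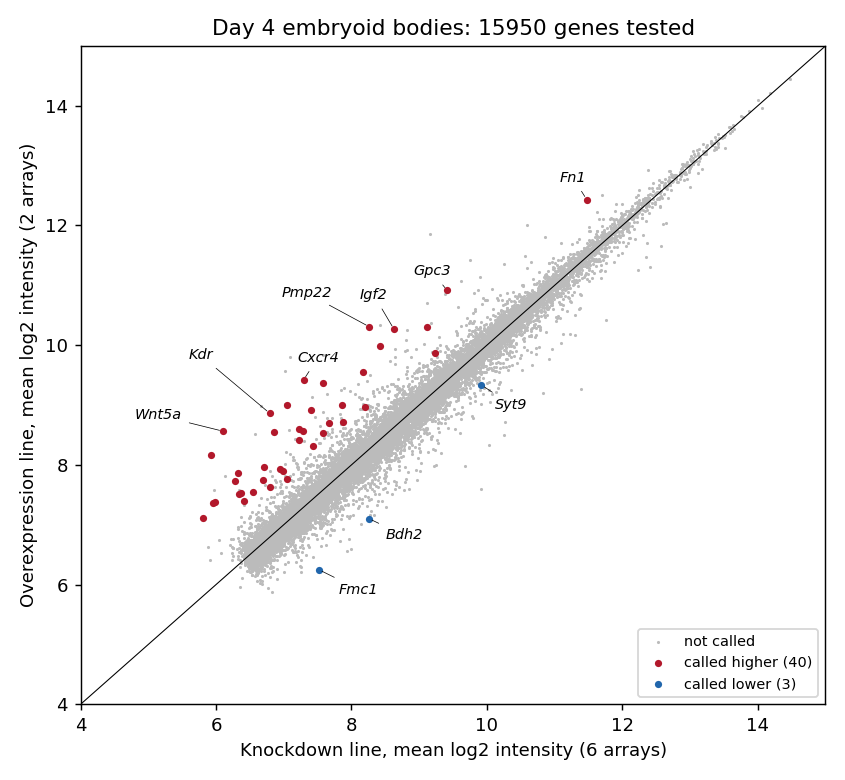
Mean log2 intensity of each tested gene in the 6 knockdown-line arrays (x axis) and the 2 overexpression-line arrays (y axis) on day 4, with the line of equal level. The 40 genes called higher (red) lie above the diagonal, mostly at low to middle levels, and the 3 called lower (blue) below it.

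The targeted gene and the transgene's neighbour were read first. Gmnn (probe set 10408321) ran from 9.63 to 10.33 in the knockdown line, with a median of 9.90, and stood at 10.35 without and 11.04 with dox in the overexpression line. Both overexpression-line arrays thus lay above the knockdown line. The difference was 0.77 ± 0.22 (SE; limma adjusted p = 0.242), but it was 0.17 without the overexpression-line dox array and 1.36 without its control. The dox effect on Gmnn differed between the lines by 1.19 ± 0.22 (SE; limma adjusted p = 1.00). Hprt is the purine salvage gene next to which A2lox cells carry their inducible cassette. It stood at 7.41 ± 0.74 without and 11.22 ± 0.21 with dox in the knockdown line (SD, n = 3 each), and at 8.08 and 11.74 in the overexpression line. Its difference between lines was 0.60 ± 0.31 (SE; limma adjusted p = 0.502).

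Of 21 nascent and paraxial mesoderm genes tested, Msgn1, Mesp1, Tbx6 and Rspo3 were called higher in the overexpression line (0.251% of all genes). In this list 6 genes had a negative difference. Msgn1, a bHLH factor of presomitic mesoderm, lay between 7.12 and 7.38 in the 6 knockdown-line arrays, with a median of 7.20, and at 8.57 without and 8.64 with dox in the overexpression line. The gap between the lines was several times the whole range within the knockdown line, and the difference was 1.37 ± 0.10 (SE; limma adjusted p = 0.0017). Mesp1, the bHLH factor that opens the cardiac and cranial mesoderm programme, lay between 5.98 and 6.63 against 7.68 and 7.79, a difference of 1.45 ± 0.16 from a dim group (SE; limma adjusted p = 0.0113). Tbx6, a T-box factor of paraxial mesoderm, lay between 6.64 and 7.18 against 7.86 and 7.98, a difference of 0.99 ± 0.13 (SE; limma adjusted p = 0.0251). The control and the dox array of the overexpression line lay close to each other for each of these genes. The secreted Wnt amplifier Rspo3 varied more within the knockdown line, from 6.31 to 7.66, and stood at 9.07 and 8.93 in the overexpression line (1.96 ± 0.28 SE; limma adjusted p = 0.0368).

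The promoters of the called genes of this list are shown because these genes were high together in the overexpression line and because Tcf/Lef factors, which carry the Wnt signal to DNA, are known regulators in the streak. The table of RefSeq promoters (GRCm38.p6) had an entry for Msgn1, Mesp1 and Tbx6, and none was matched for Rspo3. Each sequence is the 250 bases before the gene's start, 5′ to 3′ on the gene's strand. Capitals mark CTTTGA or CTTTGT, the core that Tcf/Lef factors read, on either strand. The stretches are chr12:11208949-11209198 (minus strand) for Msgn1, chr7:79793591-79793840 (minus strand) for Mesp1 and chr7:126781233-126781482 (plus strand) for Tbx6.
Msgn1: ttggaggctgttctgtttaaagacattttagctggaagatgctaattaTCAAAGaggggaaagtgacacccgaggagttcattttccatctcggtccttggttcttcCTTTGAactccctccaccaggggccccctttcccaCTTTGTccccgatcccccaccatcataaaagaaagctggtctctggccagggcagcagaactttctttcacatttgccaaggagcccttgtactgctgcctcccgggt
Mesp1: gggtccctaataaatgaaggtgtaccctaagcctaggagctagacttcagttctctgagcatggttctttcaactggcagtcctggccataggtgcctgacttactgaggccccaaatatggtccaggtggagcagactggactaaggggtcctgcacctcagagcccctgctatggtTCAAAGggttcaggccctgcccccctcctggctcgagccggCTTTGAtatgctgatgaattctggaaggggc
Tbx6: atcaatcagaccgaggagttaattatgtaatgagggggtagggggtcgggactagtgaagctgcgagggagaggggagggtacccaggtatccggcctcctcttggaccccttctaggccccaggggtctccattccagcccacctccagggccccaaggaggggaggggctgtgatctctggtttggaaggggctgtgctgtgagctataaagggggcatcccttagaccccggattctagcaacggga
The Msgn1 stretch held 3 matches, the Mesp1 stretch 2 and the Tbx6 stretch 0. Such a match is common: 13 of the 42 promoters matched to 31 of the 40 genes called higher held at least 1 (31%), against 27.6% of all 32851 promoters in the table. A match is a run of letters and says nothing of binding, and the absence of one says only that these letters are not in this window.

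The list of nascent and paraxial mesoderm had 21 members tested, and its median difference was 0.63. Of these, 4 were called higher and 0 lower, where 0.251% and 0.0188% of all genes were. Both overexpression-line arrays lay above the knockdown line for 14 of the 21 and below it for 2, where the shares over all genes tested were 8.11% and 8.41%. The largest difference in the list was that of Aplnr, the apelin receptor of migrating mesoderm, which was not called. It ran from 6.14 to 8.46 in the knockdown line and stood at 9.83 and 9.79 in the overexpression line (2.72 ± 0.47 SE; limma adjusted p = 0.0651). Cyp26a1, which breaks down retinoic acid, ran from 7.60 to 9.03 against 10.44 and 10.22 (1.91 ± 0.32 SE; limma adjusted p = 0.0617). Neither gene's arrays overlapped between the lines, but their spread within the knockdown line was wide.

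Of 20 lateral and extraembryonic mesoderm genes tested, 6 were called, all higher (0.251% of all genes), and the median difference was 0.50. Of these 6, Bmp2, Tbx20 and Foxf1 are among the genes that were dim in the knockdown line. Both overexpression-line arrays lay above the knockdown line for 9 of the 20 (8.11% of all genes) and below it for 0. Kdr, the VEGF receptor that marks mesoderm with blood and vessel potential, ran from 6.06 to 7.27 in the knockdown line, with a median of 6.88, and stood at 8.89 without and 8.83 with dox in the overexpression line (2.07 ± 0.24 SE; limma adjusted p = 0.0148), or 4.21-fold. The homeobox genes Msx1 and Msx2, known targets of BMP, differed by 1.79 ± 0.24 and 1.70 ± 0.14 (SE; limma adjusted p = 0.0305 and 0.00252). Msx2 lay between 6.66 and 7.17 in the knockdown line and at 8.58 and 8.53 in the overexpression line. Bmp2, a BMP ligand, was dim and close to the filter level in the knockdown line. It lay between 6.14 and 6.45 in the knockdown line and at 7.87 and 7.85 in the overexpression line, a difference of 1.53 ± 0.10 (SE; limma adjusted p = 0.0016). Tbx20, a T-box factor of heart mesoderm, and Foxf1, a forkhead factor of lateral plate and allantois, differed by 1.41 ± 0.15 and 0.98 ± 0.11 (SE; limma adjusted p = 0.0113 for each).

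**Figure D2:**
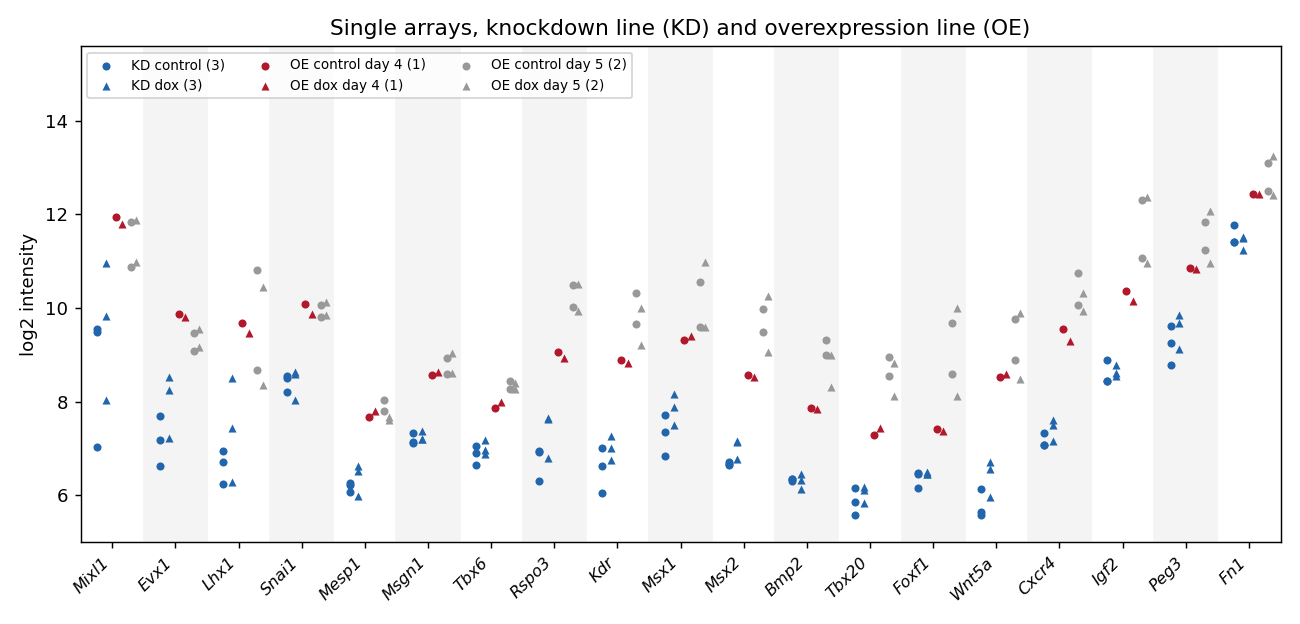
Log2 intensity of 19 genes in every array of the knockdown line (KD, blue), the overexpression line (OE) on day 4 (red) and the overexpression line on day 5 (grey), circles for controls and triangles for dox. Msgn1, Bmp2, Msx2 and Igf2 are tight within the knockdown line and well below both red points, whereas Mixl1, Evx1 and Lhx1 spread widely within the knockdown line.

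Signals, receptors and guidance molecules were also among the 15 largest calls. Wnt5a, a ligand of the posterior streak and mesoderm that drives cell movement, was also dim in the knockdown line. It ran from 5.59 to 6.72 in the knockdown line, with a median of 6.05, and stood at 8.52 without and 8.60 with dox in the overexpression line (2.46 ± 0.23 SE; limma adjusted p = 0.00417). The chemokine receptor Cxcr4, carried by early mesoderm and endoderm, lay between 7.07 and 7.62 against 9.55 and 9.29 (2.13 ± 0.16 SE, 4.37-fold; limma adjusted p = 0.0021). Plxna2 and Nrp1, a plexin and a neuropilin that receive semaphorins and in the case of Nrp1 also VEGF, differed by 1.51 ± 0.14 and 1.39 ± 0.12 (SE; limma adjusted p = 0.00417 and 0.00324). The secreted Wnt inhibitor Dkk1 ran from 6.92 to 7.79 against 8.61 and 8.52 (1.28 ± 0.18 SE; limma adjusted p = 0.0305). Snai1, the zinc finger repressor that drives cells out of an epithelium, lay between 8.04 and 8.64 against 10.08 and 9.87 (1.56 ± 0.17 SE; limma adjusted p = 0.0113). Fn1, the matrix protein fibronectin, which mesoderm migrates on, was 1.95-fold higher (0.96 ± 0.13 SE; limma adjusted p = 0.0305). Fn1 was the only call among 20 tested members of the basement membrane list (0.27% of all genes). That list went mostly the other way, with 16 members at a negative difference and a median of -0.27. Lmo2, a partner of Tal1 in blood and vessel precursors, ran from 7.51 to 8.59 against 9.43 and 9.66 (1.38 ± 0.20 SE; limma adjusted p = 0.0351). It was the only call among 18 tested members of the blood and endothelium list (0.27% of all genes), whose median difference was -0.04.

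Igf2, the growth factor expressed from the father's copy, lay between 8.44 and 8.90 in the 6 knockdown-line arrays, with a median of 8.59, and at 10.37 without and 10.16 with dox in the overexpression line (1.64 ± 0.14 SE, 3.12-fold; limma adjusted p = 0.00362). Gpc3, a cell surface proteoglycan that lies near Hprt on the X chromosome, lay between 9.06 and 9.61 against 11.01 and 10.82 (1.50 ± 0.14 SE; limma adjusted p = 0.00447). Pmp22, a membrane protein best known from myelin, lay between 7.83 and 8.68 against 10.31 and 10.30 (2.05 ± 0.18 SE; limma adjusted p = 0.00362). Of 20 tested genes expressed from the father's copy, Igf2 was the 1 called (0.27% of all genes). Both overexpression-line arrays lay above the knockdown line for 5 of the 20 (8.11% of all genes). Peg3, a zinc finger gene of that list, ran from 8.79 to 9.85 against 10.87 and 10.85 (1.47 ± 0.24 SE; limma adjusted p = 0.0609). Of 18 tested genes expressed from the mother's copy, Asb4 was the 1 called (0.27% of all genes), at 1.18 ± 0.17 (SE; limma adjusted p = 0.0356). The medians of these lists were 0.18 and -0.05, with 12 of 20 and 8 of 18 members at a positive difference. Expression arrays of this kind do not tell the parental copies apart.

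Msgn1, Tbx6, Foxf1 and Dkk1 fall outside the naming rule and were singled out after their values were seen. So were other genes called higher, which were Prdm6, Cpxm2, Tgfb2, Maml3, Gbp3, Apcdd1, Dgkk, Gata3, Gbp4, Amot, Fgf10, Lmo1, Cabp1, Rasgrp3 and Kitl. Oasl2 and Ifitm1, also called higher, were named by the rule as leading members of their lists. The cDNA model B130016D09Rik, left unnamed by the rule as a predicted gene, was also called and its difference was second among calls to that of Wnt5a. It lay between 5.58 and 6.16 in the knockdown line and at 8.10 and 8.23 in the overexpression line (2.24 ± 0.15 SE; limma adjusted p = 0.0016). Gbp3, Gbp4, Oasl2 and Ifitm1 are known interferon-inducible genes. Of these, Oasl2 belongs to the interferon list, of which 1 of 22 tested members was called (0.27% of all genes) and whose median difference was 0.13. Oasl2 lay between 7.54 and 8.29 against 8.56 and 8.88 (0.84 ± 0.12 SE; limma adjusted p = 0.0305). Bst2 of the same list went the other way, from 9.45 to 9.84 against 8.73 and 9.04 (-0.77 ± 0.13 SE; limma adjusted p = 0.0625).

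The day 5 arrays of the overexpression line were not in the fit and are given beside the day 4 values. Wnt5a ran from 8.49 to 9.89 in the 4 day 5 arrays, Cxcr4 from 9.94 to 10.75, Kdr from 9.21 to 10.31, Bmp2 from 8.31 to 9.32 and Igf2 from 10.95 to 12.37. Mesp1 ran from 7.62 to 8.04 and Snai1 from 9.81 to 10.14, around their day 4 levels in that line. The day 4 pair lay between the knockdown line and the lowest day 5 array for Cxcr4, Kdr, Bmp2 and Igf2. Day cannot be told apart from replicate number within the overexpression line.

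Primitive streak genes had the largest median difference of the lists, 1.26. Of 21 members tested, 2 were called higher (0.251% of all genes), Snai1 and Mesp1, and 0 lower. Both overexpression-line arrays lay above the knockdown line for 17 (8.11% of all genes), and 18 had an unadjusted p under 0.05 in limma. The knockdown-line arrays differed widely among themselves on these genes. Mixl1, a homeobox gene of the streak, ran from 7.03 to 10.95, with a median of 9.53, against 11.94 and 11.79 (2.71 ± 0.83 SE; limma adjusted p = 0.263). Evx1, a posterior streak factor, ran from 6.64 to 8.53 against 9.87 and 9.81 (2.25 ± 0.38 SE; limma adjusted p = 0.0649). Lhx1 ran from 6.24 to 8.51 against 9.68 and 9.47 (2.55 ± 0.50 SE; limma adjusted p = 0.0961). Eomes ran from 8.11 to 10.92 against 11.60 and 11.25 (1.67 ± 0.61 SE; limma adjusted p = 0.329), a difference that was 1.05 without the overexpression control. As a mean over the 21 genes, the knockdown controls stood at 8.18, 7.47 and 8.43 in replicates 1, 2 and 3 and the knockdown dox arrays at 8.91, 7.89 and 8.62, against 9.50 and 9.42 in the overexpression line. The range within the knockdown line was wider than the step from its highest array to the overexpression line.

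The lateral and extraembryonic mesoderm list behaved otherwise as a mean, though not in every member. Its mean over 20 genes lay between 7.60 and 7.82 in all 6 knockdown-line arrays and at 8.41 and 8.34 in the overexpression line, and between 8.68 and 9.41 on day 5. The nascent and paraxial mesoderm mean over 21 genes lay between 7.29 and 7.75 against 8.20 and 8.22, and between 8.38 and 8.61 on day 5. The streak and the nascent mesoderm lists share 2 members, Mesp1 among them, so their means are not independent. The lateral and extraembryonic list shares 0 members with either, but 2 with the blood and endothelium list and 2 with the primitive and visceral endoderm list. Its flat mean can hide members that moved in opposite directions. Kdr ran from 6.06 in knockdown control 2 to 7.27 in dox 1, and Msx1 from 6.84 to 8.17 in the same arrays, which also had the lowest and highest streak means. Bmp2 ran only from 6.14 to 6.45.

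**Figure D3:**
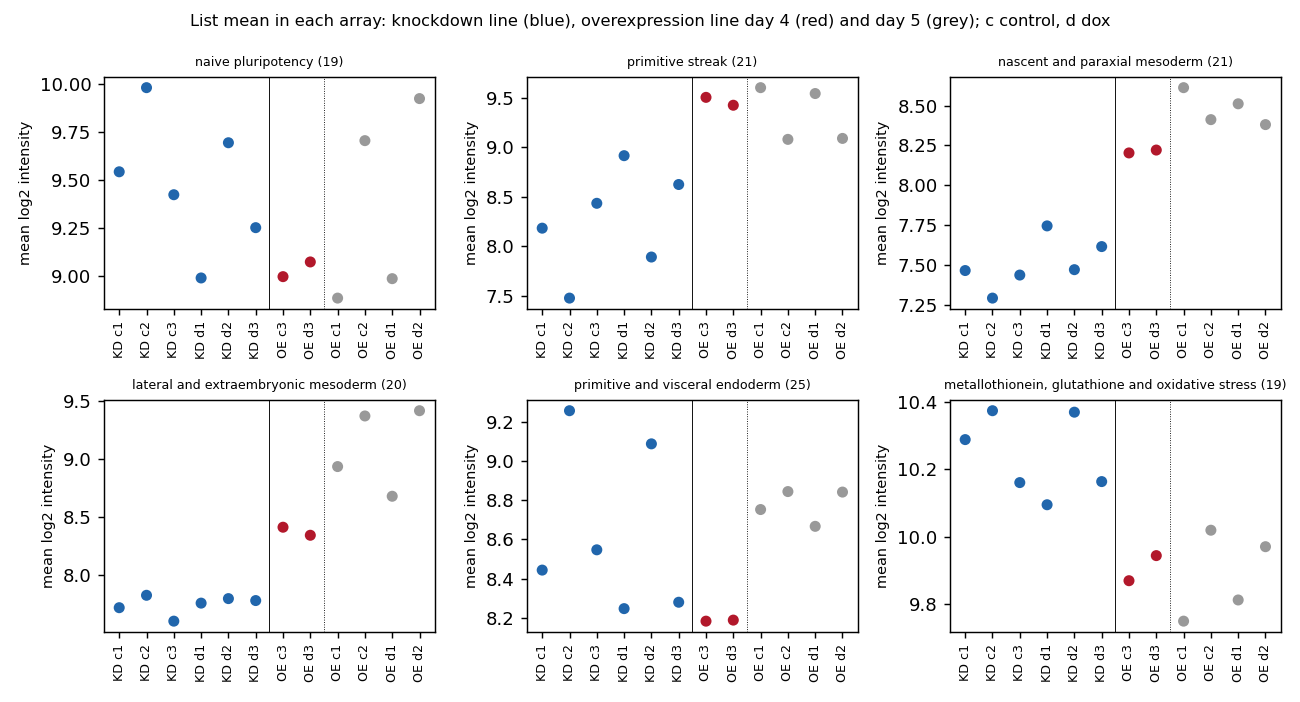
Mean log2 intensity over the tested members of 6 gene lists in each array: knockdown line (blue), overexpression line on day 4 (red) and on day 5 (grey), with c for control, d for dox and the replicate number; each panel has its own vertical scale. The streak and naive pluripotency means spread widely over the blue points, while the lateral mesoderm mean is flat across them, from 7.60 to 7.82, with the red points at 8.41 and 8.34.

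Genes called lower in the overexpression line were Fmc1, Bdh2 and Syt9. Fmc1, an assembly factor of the mitochondrial ATP synthase, lay between 7.15 and 7.95 in the knockdown line, with a median of 7.48, and at 6.35 without and 6.15 with dox in the overexpression line (-1.27 ± 0.18 SE, 2.41-fold lower; limma adjusted p = 0.0356). Bdh2, a cytosolic dehydrogenase of the ketone body family, lay between 7.94 and 8.74 against 7.04 and 7.16 (-1.15 ± 0.17 SE; limma adjusted p = 0.0407). Syt9, a synaptotagmin of vesicle release, lay between 9.80 and 10.04 against 9.30 and 9.37 (-0.58 ± 0.09 SE; limma adjusted p = 0.0478). On day 5 Bdh2 ran from 7.85 to 8.63, overlapping the knockdown line, while Fmc1 ran from 6.29 to 7.06 and Syt9 from 8.86 to 9.08, below it. Next by p, and not called, were Duoxa1 at -0.77 ± 0.12, Syce2, a synaptonemal complex gene, at -0.64 ± 0.10, Uap1l1 at -0.79 ± 0.13 and the transporter Abcc4 at -1.10 ± 0.18 (SE; limma adjusted p from 0.0539 to 0.0609).

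Pluripotency genes were mostly at lower values in the overexpression line, with 0 called. Of 19 naive pluripotency genes tested, 16 had a negative difference and the median was -0.39. Both overexpression-line arrays lay below the knockdown line for 3 of them and above it for 1, against 8.41% and 8.11% of all genes. Esrrb ran from 7.93 to 10.35 in the knockdown line against 7.92 and 8.03 (-1.24 ± 0.48 SE; limma adjusted p = 0.365), a difference that was -0.82 without the overexpression control. The lines overlapped on this gene, since the knockdown dox array of replicate 1 was as low. Of 13 core pluripotency and Dppa genes, 10 had a negative difference, the median was -0.17, and both arrays lay below the knockdown line for 6 (8.41% of all genes). Gdf3, a Nodal-related ligand, lay between 10.36 and 10.72 against 9.65 and 9.91 (-0.71 ± 0.12 SE; limma adjusted p = 0.0671). Dppa5a lay between 12.22 and 12.95 against 11.65 and 11.67 (-0.90 ± 0.17 SE; limma adjusted p = 0.0925). Primed epiblast genes had a median of 0.07 with 0 of 16 called, led by Lef1, a Tcf/Lef factor, at 1.05 ± 0.18 (SE; limma adjusted p = 0.0651). Dnmt3l, the cofactor of the de novo DNA methyltransferases, ran from 8.90 to 11.49 against 8.33 and 8.65 (-1.76 ± 0.56 SE; limma adjusted p = 0.275).

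Primitive and visceral endoderm genes, the outer layer of an embryoid body, had 20 of 25 members at a negative difference, a median of -0.26 and 0 calls. Cubn, an uptake receptor of that layer, ran from 8.21 to 11.72 in the knockdown line against 7.60 and 7.58 (-2.32 ± 0.89 SE; limma adjusted p = 0.356), and its adaptor Dab2 from 8.87 to 11.38 against 8.30 and 8.37 (-1.69 ± 0.64 SE; limma adjusted p = 0.356). The basement membrane gene Lama1 ran from 9.17 to 11.79 against 8.49 and 8.95 (-1.54 ± 0.62 SE; limma adjusted p = 0.373), a difference that was -0.98 without the overexpression control. Over the 25 endoderm genes the knockdown line ranged from 8.25 to 9.26, with both replicate 2 arrays highest at 9.26 and 9.09, and the overexpression line stood at 8.18 and 8.19. In the definitive endoderm and organizer list, 2 of 21 were called higher (0.251% of all genes), Cxcr4 and Dkk1. The median of that list was 0.23, with the Nodal antagonist Cer1 at 1.61 ± 0.35 and Gsc at 1.54 ± 0.49 (SE; limma adjusted p = 0.132 and 0.277). The knockdown-line mean of Cer1, 5.97, lay below the level required for testing (log2 6.46). Its size and p are thus descriptions against a dim group.

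Most members of the stress and metabolic lists also had a negative difference, as did 8370 of the 15950 genes tested, and none was called. Of 19 metallothionein, glutathione and oxidative stress genes, 17 had a negative difference, the median was -0.35 and both overexpression-line arrays lay below the knockdown line for 10 (8.41% of all genes). Mt2, a metal-binding metallothionein, lay between 12.04 and 12.88 against 11.19 and 11.43 (-1.10 ± 0.22 SE; limma adjusted p = 0.104), and Mt1 between 11.64 and 12.52 against 11.16 and 11.35 (-0.98 ± 0.22 SE; limma adjusted p = 0.136). Of 29 Atf4 stress response genes 25, and of 24 hypoxia and glycolysis genes 21, had a negative difference, with medians of -0.22 and -0.20. Both overexpression-line arrays lay below the knockdown line for 6 and 3 of them (8.41% of all genes). The means of these lists overlapped between the lines. The Atf4 mean ran from 9.47 to 10.08 in the knockdown line against 9.44 and 9.48, and the hypoxia mean from 10.06 to 10.70 against 10.14 and 9.94. Trib3 of the Atf4 list ran from 7.89 to 9.39 against 7.57 and 7.64 (-1.04 ± 0.32 SE; limma adjusted p = 0.272), a difference that was -0.62 without the overexpression control.

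Other programmes lay close to the median of all genes. The medians were 0.01 for 33 replication licensing genes, -0.01 for 27 mitosis genes, -0.0021 for 31 polycomb and BAF genes, -0.07 for 26 neural genes and -0.07 for 23 Hox genes, each with 0 called. Among the Hox genes Hoxb1, active early in the streak, stood out at 0.89 ± 0.14 (SE; limma adjusted p = 0.0539). Feeder fibroblast genes had a median of -0.02 over 24, and their array means lay between 7.89 and 8.29 in the knockdown line against 8.09 and 8.17. Of 6 feeder markers on the array, Postn and Lum were below the tested range of signal in both lines. Col1a1 lay between 8.02 and 8.18 against 8.54 and 8.62 (0.48 ± 0.09 SE; limma adjusted p = 0.0906). Col1a2, Col3a1 and Thy1 were above the filter level in every day 4 array. Col1a2 lay between 8.12 and 8.65 against 8.57 and 8.35, and Col3a1 between 7.77 and 8.33 against 8.13 and 8.06. Thy1 lay between 7.68 and 8.37 against 7.65 and 7.70. The part of feeder cells in the mesoderm result was not tested beyond these values. Of the 8 Y-linked genes on the array with a probe set of their own, 6 were below the tested range, Eif2s3y, Kdm5d and Uty among them, in both lines.

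**Figure D4:**
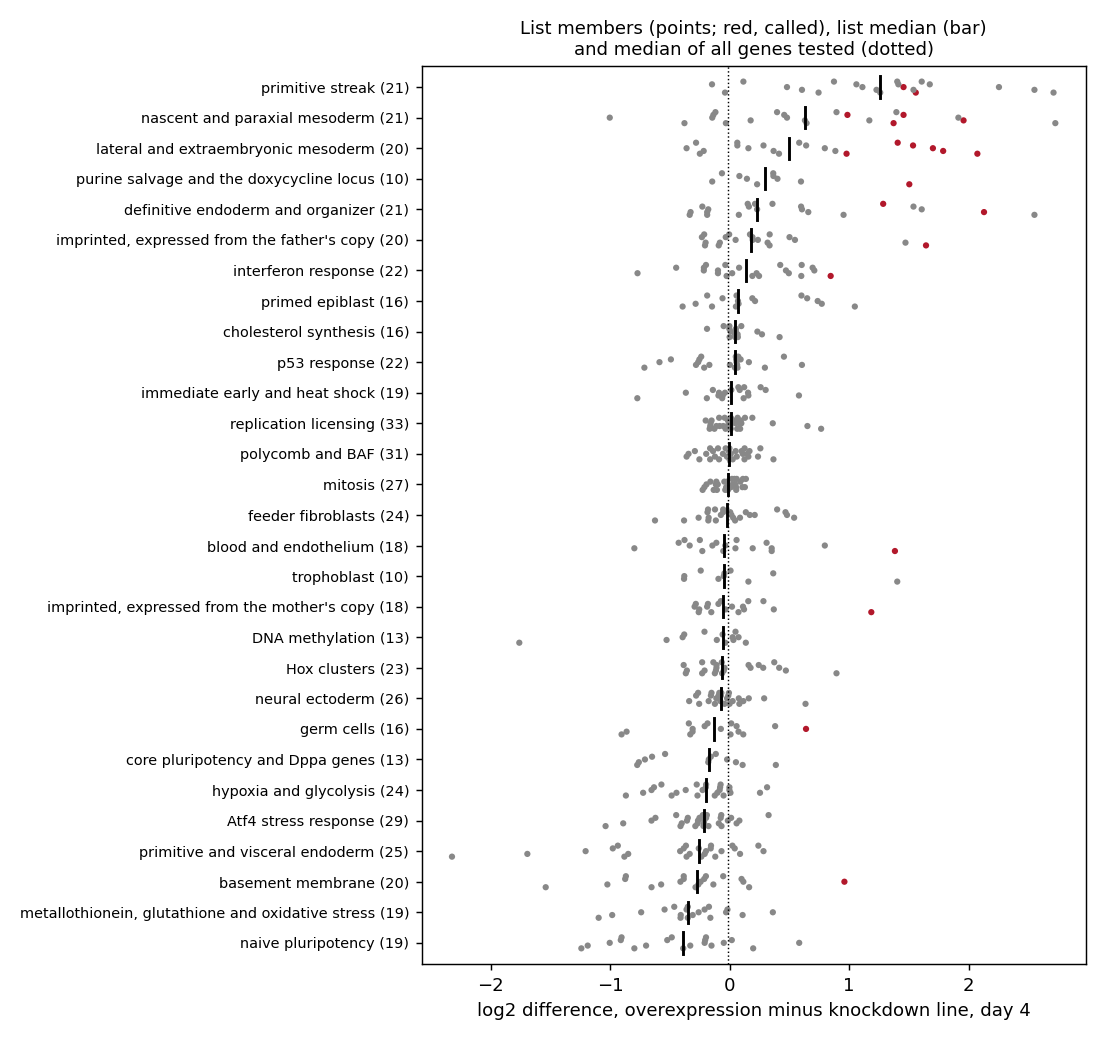
Log2 difference of each tested member (points, red where called) of the gene lists with at least 10 tested members, overexpression minus knockdown line on day 4, with each list's median as a bar and the median of all genes tested as a dotted line. The 3 streak and mesoderm lists are at the top, with medians of 1.26, 0.63 and 0.50, and naive pluripotency is at the bottom, with a median of -0.39.

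Medians by chromosome lay near the median of all genes. Grouped through the RefSeq gene table, the median difference of the autosomes and the X chromosome lay between -0.03 and 0.04, the X being the highest with 507 genes tested and 3 called.

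Whether the line difference held in controls and in dox arrays was read from array sets that share no array, 1 against 3 in each. Across the 15950 genes, the difference in controls and that in dox arrays had a Pearson r of 0.68 and a Spearman rho of 0.56. Genes are not independent replicates, and the arrays of a pair may share a culture, so no p is attached. For Wnt5a the difference was 2.74 without and 2.18 with dox, for Cxcr4 2.39 and 1.87, for Bmp2 1.53 and 1.53, and for Fmc1 -1.24 and -1.29. These genes were called from the same arrays, with both overexpression-line arrays outside the knockdown-line range. The same sign in both sets was thus fixed in advance, and the values are descriptions. limma found a dox effect that differed between lines for 0 genes, and 121 had an unadjusted p under 0.05, where each overexpression-line group holds 1 array. Among single arrays, the overexpression-line pair correlated at 0.992 over the tested genes. Among knockdown-line arrays, the overexpression control was nearest to the dox array of replicate 1 (0.984) and the overexpression dox array to that of replicate 3 (0.988). Both were farthest from knockdown control replicate 2 (0.960). Within the knockdown line, correlations ran from 0.966 to 0.990, and the dox array of replicate 3 reached at most 0.987.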

How the data were processed

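Per the labels, biotin-labelled target from 1 µg of total RNA of day 4 and day 5 embryoid bodies went onto Affymetrix whole-transcript mouse arrays. The authors deposited 1 linear intensity per probe set and array for 12 arrays. Their background correction, scaling and probe summary were not given in the sources used here. Over the 12 arrays the mean intensity ran from 677.3 to 696.6 and the median from 145.3 to 182.2. Arrays have no read depth, so precision depends on how many there are.

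Intensities were taken as log2(intensity + 1) and quantile normalized over the 12 arrays. Of 35512 probe sets, 21789 had 1 gene in the platform annotation, 1621 several and 12102 none, and 21698 of those with 1 gene were found in the RefSeq gene table. The brightest probe set stood for each of 19938 genes. Genes whose mean over the 12 arrays was at or above the 20th percentile (log2 6.46) were tested, 15950 in all. limma 3.58.1 in R 4.3.3 was fitted to the 8 day 4 arrays with terms for line and dox, leaving 5 residual degrees of freedom, and p-values were adjusted by Benjamini-Hochberg over all genes tested, with calls under 0.05. An exact two-sided permutation test within dox could not go below p = 0.125 and was not used for single genes. The script was tested on simulated data. The alternatives were other normalization, pseudocount, filter, probe set and model choices, replicate blocks and leaving out each array.

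The text names Gmnn, Hprt, up to 15 genes in each direction by size of difference or, failing calls, by p, and some of up to 4 leading members of each of 33 gene lists. Predicted gene models were left out of the naming rule. Members and lists were chosen with earlier results of these data known. In the knockdown line, deviations from the group mean were correlated between control and dox arrays. They gave 0.60, 0.44 and 0.05 for matching replicate numbers 1, 2 and 3, and -0.50 to 0.02 for different numbers. Arrays of replicates 1 and 2 thus resembled their partners, and those of replicate 3 hardly did. limma put the correlation within a pair of arrays at 0.33. The main fit had no replicate block and so counted paired arrays as independent.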

Additional observations from a re-analysis of the deposited data

Results flagged for a closer look

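Within the 6 knockdown-line arrays, control and dox together, at least 72 of the genes named were screened. Of these, 3 had 1 array far from the others by Dixon's criterion, which chance meets in about 1 in 20 groups. That is no more than chance alone would give. Foxf1 stood at 6.155 in control 3, with the nearest array at 6.451. Lmo1 stood at 6.909 in dox 1, with the nearest array at 6.368. Syce2 stood at 10.21 in control 2, with the nearest array at 10.03.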

How the results depend on the processing

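The 43 called genes kept their direction under every alternative run, 34 of them being tested with the filter at the 40th percentile. For all 43, both overexpression-line arrays lay on 1 side of all 6 knockdown-line arrays. Leaving out arrays, averaging pairs or taking controls or dox arrays alone therefore could not reverse a direction, and the kept direction is no support there. The counts moved more, from 40 higher and 3 lower. Without quantile normalization 36 were called higher and 1 lower. Centring each array on its median gave 75 higher and 10 lower, with 689 genes above all knockdown arrays, and a pseudocount of 32 gave 62 and 9. A dox effect for each line gave 23 and 1, no dox term 42 and 10, all 12 arrays 54 and 11, and array weights 548 and 503. Controls alone and dox arrays alone, 1 against 3, each called 0 in both directions (771 and 764 at an unadjusted p under 0.05), with 3682 and 3906 genes above and 4040 and 4140 below. Leaving out 1 array gave 0 to 49 called higher, 0 to 6 lower, 1335 to 2651 above and 1437 to 2724 below. With the replicate number as a fixed replicate block, 25 were higher and 3 lower, 19 of these 28 among the 43. With each pair as a random replicate block, 18 were higher and 0 lower, all among the 43, and with pair means 0 and 0 were called. The cause of these shifts was not tested, and the subsets changed the number and the identity of the arrays together. In limma the dox effect differed between lines for 0 genes under each of 10 alternatives added after seeing the data, with 78 to 243 at an unadjusted p under 0.05. Signal over background limits 10 of the 40 calls higher, whose mean in the knockdown line lay below the level required for testing.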
